A study of Mus musculus with 221 samples.

Results

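Vascular endothelial growth factors (VEGFs) and angiopoietins act on endothelial cells through 2 families of receptor tyrosine kinases, and the neuropilins are co-receptors of the first. The genes described here are Kdr, Flt1 and Flt4, which encode VEGF receptors, Nrp1 and Nrp2, which encode the neuropilins, and Tie1 and Tek, which encode the TIE receptors. They were chosen by name, and all 7 of the 7 were found among the 78317 genes measured, with 29 of the 278369 annotated transcripts. They were followed through the endothelial-to-hematopoietic transition (EHT), in which hemogenic endothelium (HE) of the mouse embryo gives rise to blood cells.

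KDR is the main signalling receptor for VEGF-A and is needed for the first endothelial and blood cells of the embryo. FLT1 binds VEGF-A tightly but signals weakly, and a soluble form that lacks the membrane anchor and the kinase acts as a decoy. FLT4 is the receptor for VEGF-C and later becomes a hallmark of lymphatic endothelium. Neuropilins have no kinase and bind both VEGFs and class 3 semaphorins, with Nrp1 known for arterial and Nrp2 for venous and lymphatic endothelium. TEK, also called TIE2, is the angiopoietin receptor, and TIE1 is its relative with no known direct ligand.

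Smart-seq2 complementary DNA (cDNA) of single cells from untreated embryos was sequenced as long nanopore reads. The embryos carried Runx1b-RFP or Gfi1-GFP reporters of the strain C57BL/6JOlaHsd, with CD-1 mothers. HE of the aorta-gonad-mesonephros region (AGM) was collected at E9.5 and E10.5 and sorted as RUNX1+, KIT-, CDH5+, CD41- and CD45-, with or without GFI1, while yolk sac (YS) HE came from E9.0, E9.5 and E10.5 and was sorted as KIT+ and CD31+, again RUNX1+ and without CD41 or CD45. The sort gate, the dissected tissue and the cDNA project therefore cannot be told apart between AGM and YS cells, since the AGM cells used came from projects 34, 36 and 43 and all but 1 of the YS cells from project 69. HE-AGM held the clusters c3 (early, 29 cells used) and c4 (late, 20), HE-YSA, the arterial YS population, held a1 (early, 23) and a2 (late, 29), and HE-YSP, the population of the YS plexus, held b2 (early, 25) and b3 (late, 24). Further along lay the AGM cluster c5, labelled HE-Hb (21 cells), and the early YS progenitors p1 (17 cells, lympho-myeloid or LMP skewed) and p2 (20 cells, erythro-myeloid or EMP skewed). The clusters were drawn by the authors from the short-read expression of the same cells, so the step from early to late may itself have used these genes. Of 221 labelled cells, 208 had at least 17595 estimated counts and were used. The median total per cell ran from 55908 to 65347 in the AGM clusters and from 30858 to 36710 in the YS clusters. Each of the 3 nanopore runs held cells of every cluster, and 3 of the YS cells used had a project or library name that went against their tissue label.

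Each sample is 1 cell and no embryo is named, so every cluster counted as 1 sample and no difference between clusters has a replicate check or a test. Levels are in CPM, the usual scaling of counts by their total, taken here over the summed cells of a cluster, with an exact 95% Poisson interval in brackets. Ratios are log2 ratios of 2 such levels with an exact 95% interval. All intervals cover counting error only, because the reads passed through PCR without molecular identifiers, and they leave out the spread between cells and embryos. A ratio was called when it was at least 2-fold and rested on at least 50 summed counts.

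The labels were checked against markers. All 8 endothelial markers (Pecam1, Cdh5, Emcn, Esam, Cldn5, Egfl7, Ramp2 and Eng) had counts in each of the 6 HE clusters, with a summed level of 1910 to 6128 CPM, and the sum was 554 CPM in c5, 1334 CPM in p1 and 629 CPM in p2, where Emcn was at 0. The 8 blood markers summed to 263 to 1014 CPM in the HE clusters and to 1201 to 1456 CPM in c5, p1 and p2. Lyve1, a marker of the YS plexus, stood at 911 CPM in b2 and 414 CPM in b3 and at no more than 44.1 CPM elsewhere. Vwf, an endothelial gene, and Cd24a were at 246 and 47.6 CPM in a1 against 3.53 and 0 CPM in b2. Kit went against the sort gates, which were set on protein. Its RNA was called higher in HE-AGM, sorted as KIT-, than in HE-YSP, sorted as KIT+. It was also called higher in c4 than in c3, and was not called between HE-AGM and HE-YSA. Markers of other cells were low with a few exceptions. Erythroid markers summed to 2.65 to 42.7 CPM apart from c3 (304 CPM, with 1 cell at 10009), and macrophage markers to 1.37 to 19.5 CPM apart from b2 (119 CPM), where Adgre1, C1qa and C1qb were at 0. Mesenchyme markers reached 172 CPM in c5, from Dlk1 alone of the 6 genes, and 0 to 30.9 CPM elsewhere. Megakaryocyte markers lay at 3.6 to 54.1 CPM and yolk sac endoderm markers at 0 to 2.58 CPM. The part of these cells in the results below was not tested.

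Several of the results turn on the sequence of the transcript. Flt1 has a full-length form, Flt1-202 (6895 bases, 30 exons, 3999 coding bases), and a soluble form, Flt1-203 (6292 bases, 13 exons, 2064 coding bases), on the minus strand of chr5:147561604-147726011 in GRCm38. The forms part after exon 13 (chr5:147639225-147639533), where the first splices to exon 14 (chr5:147634377-147634523) and the second reads on into the intron for 92 coding bases and a stop codon (chr5:147639130-147639224). The last 30 bases of the shared exon are printed in lower case and the first 95 bases of each form after it in capitals. They show where the forms part, and reads that lie beyond this point can tell the forms apart as well.
Flt1-202: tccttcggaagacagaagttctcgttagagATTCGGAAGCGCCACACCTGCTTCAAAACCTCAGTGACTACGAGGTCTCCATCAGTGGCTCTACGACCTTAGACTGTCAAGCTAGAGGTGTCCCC
Flt1-203: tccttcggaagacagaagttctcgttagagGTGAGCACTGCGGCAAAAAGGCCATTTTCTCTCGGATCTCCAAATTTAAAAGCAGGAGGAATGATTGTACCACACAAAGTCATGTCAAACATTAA
The 2 capital stretches are identical at 19 of the 95 positions, and that of Flt1-203 ends in its stop codon, TAA. Tek, on the plus strand of chr4:94739289-94874976, has an exon that its transcripts use or leave out. Tek-203 holds exon 4 (chr4:94799127-94799279), 153 coding bases or 51 codons, and Tek-202 lacks it. The exon is printed in capitals between 20 bases of either neighbour, followed by the junction without it.
Tek-203: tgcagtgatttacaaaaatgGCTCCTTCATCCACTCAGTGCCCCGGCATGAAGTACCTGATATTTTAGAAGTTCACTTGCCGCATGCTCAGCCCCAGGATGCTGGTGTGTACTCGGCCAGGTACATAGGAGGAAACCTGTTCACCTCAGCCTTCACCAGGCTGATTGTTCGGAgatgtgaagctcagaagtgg
Tek-202: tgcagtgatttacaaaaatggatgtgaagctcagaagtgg
Because 153 bases are 51 whole codons, leaving them out keeps the reading frame.

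Kdr (minus strand, chr5:75932827-75978458) was high in the 3 early HE clusters and low in all others. Its level in c3 was 109 CPM (94.6 to 125), in a1 69 CPM (52.4 to 89.2) and in b2 149 CPM (124 to 178). In the late HE clusters it was 18.7 CPM in c4 (12.2 to 27.4), 18.8 CPM in a2 (11.5 to 29) and 14.6 CPM in b3 (7.55 to 25.5). The early clusters thus stood apart from the late ones, and they differed from each other beyond counting error, in the order b2, c3, a1. In c5, p1 and p2 the level was 14.6, 13.7 and 13.7 CPM, and no neighbours among the 6 lowest clusters differed beyond their counting intervals. A count was found in 23 of 29 c3 cells, 13 of 23 a1 cells and 14 of 25 b2 cells, and in 3 to 8 cells of each other cluster. With all cells thinned to 17595 counts these were 16, 13 and 13 cells. Within b2 the median cell was at 40.8 CPM and the highest at 683 CPM, and 3 of the 25 cells held at least 50% of the counts. Kdr counts came almost wholly from the coding transcript Kdr-201, with 98.2% of all counts, and the retained-intron transcript Kdr-203 had 9 counts in 2 cells of b2.

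Flt1 was sparser and its highest level was in early HE-AGM. It stood at 45.9 CPM in c3 (36.9 to 56.5), 20.2 CPM in a1 (11.8 to 32.4) and 11.8 CPM in b2 (5.64 to 21.6). In the late clusters it fell to 9.35 CPM in c4, where 11 of the 13 counts came from 1 cell, to 0.939 CPM in a2 (1 count) and to 4.87 CPM in b3 (4 counts, 1 cell). No Flt1 count was found in c5, p1 or p2, which allows levels of up to 1.99, 4.57 and 4.1 CPM at 3 counts. A count was present in 14 of 29 c3 cells and in 6 of 23 a1 cells, against 0 of 21 c5 cells (0% to 16.1%). Only the step from c3 to the next cluster, a1, lay beyond the counting interval in the order of levels.

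Flt4 (plus strand, chr11:49609263-49652739) had its highest level in early HE-YSP. It reached 42.3 CPM in b2 (29.6 to 58.6), in 11 of 25 cells, and 22.2 CPM in c3 (16.1 to 29.9), in 6 of 29 cells. The b2 level exceeded that of c3 beyond counting error, and that of c3 exceeded a1 (8.33 CPM). In c3, however, 30 of the 43 counts were in 1 cell, and 31 of the 43 in the 5 cells of cDNA project 43, where the level was 86.4 CPM against 7.76 CPM in the 23 cells of project 34. Likewise all 8 counts of a2 and all 7 of c5 came from 1 cell each. In b2 the counts were more spread, with at most 10 in a cell, and 33 of the 36 came from E10.5 cells. Every Flt4 count belonged to the full-length coding transcript Flt4-201, which has 4089 coding bases.

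**Figure D1:**
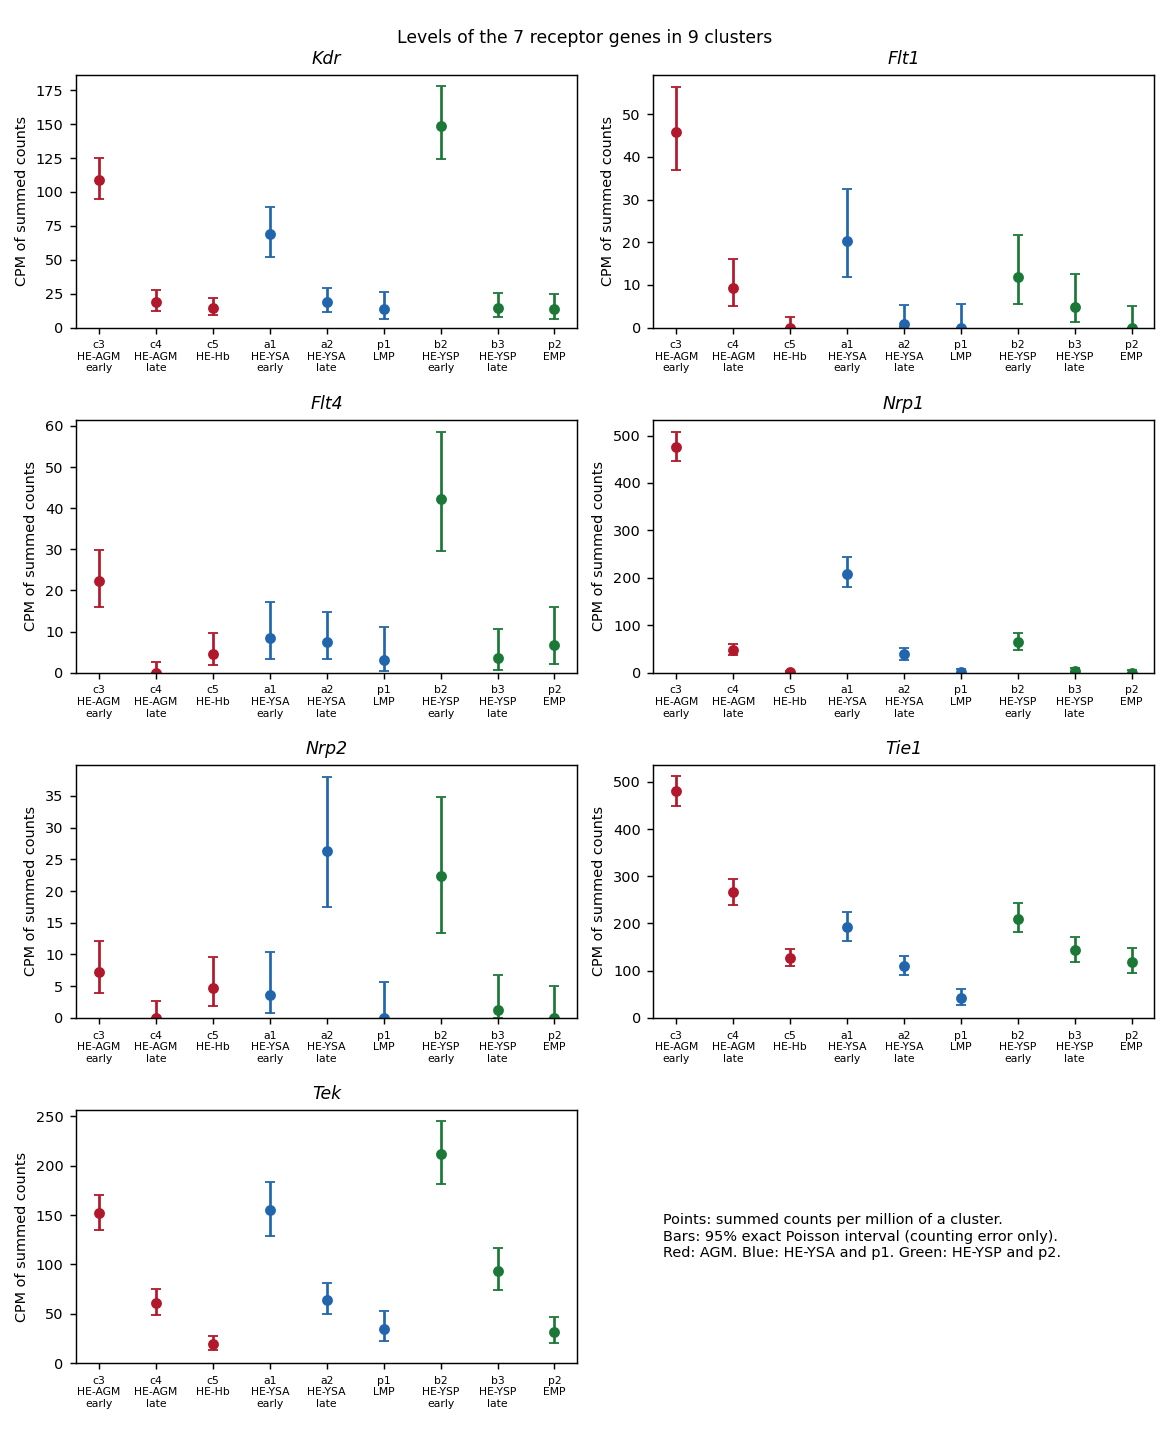
Level of each of the 7 receptor genes in the 9 clusters, in CPM of summed counts on linear axes that start at 0, with exact 95% Poisson intervals as bars. Clusters c3, b2 and a1 hold the 3 highest levels of Kdr, Flt1, Flt4, Nrp1 and Tek, while c4 is second for Tie1 (267 CPM) and a2 first for Nrp2 (26.3 CPM).

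Nrp1 (plus strand, chr8:128358604-128503363) had the widest range of the 7 genes across clusters. It was at 476 CPM in c3 (446 to 508), 209 CPM in a1 (180 to 243) and 64.6 CPM in b2 (48.7 to 84.1). The late clusters held 47.5 CPM in c4 (36.7 to 60.4), 38.5 CPM in a2 (27.6 to 52.2) and 3.65 CPM in b3 (0.754 to 10.7). Beyond HE it was close to absent, with 1 count in c5, 1 in p1 and 0 in p2. All 29 c3 cells had an Nrp1 count, from 33.3 to 1812 CPM with a median of 405 CPM. In a1, 21 of 23 cells had one, with a median of 186 CPM, and in b2 14 of 25 with a median of 32.4 CPM. In c4 the count of cells was 8 of 20, and thinning left 27, 21, 12 and 6 cells in c3, a1, b2 and c4. In the order of levels, neither b2 and c4 nor c4 and a2 differed as neighbours beyond their counting intervals, and c3 and a1 stood above them.

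Most Nrp1 counts, 95.9%, belonged to the coding transcript Nrp1-201. The remainder were retained-intron transcripts, which were uneven between clusters. Nrp1-203, a transcript of 3 exons from the 5′ end of the gene, had 23 counts in 7 cells of a1, or 13.1% of the Nrp1 counts there (8.47 to 19), against 6 counts or 0.65% in c3 (0.239 to 1.41). In b2 it had 3 counts, all in 1 cell.

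Nrp2 (plus strand, chr1:62703285-62818695) was the sparsest gene and the only one whose highest level fell in a late cluster. It stood at 26.3 CPM in a2 (17.5 to 38) and 22.3 CPM in b2 (13.4 to 34.9), which did not differ beyond counting error. It was at 7.22 CPM in c3, 4.64 CPM in c5, 3.57 CPM in a1 and 1.22 CPM in b3, and at 0 in c4, p1 and p2. The 28 counts of a2 came from 4 of 29 cells and the 19 of b2 from 5 of 25, so a few cells set both levels. In a2 these cells mostly used 1 end of the gene. Transcripts Nrp2-201 and Nrp2-205, whose last exon starts at position 62795709, held 26 of the 28 counts (92.9%, 76.5 to 99.1), against 6 of 19 in b2 (31.6%, 12.6 to 56.6), where the other transcripts end in an exon that starts at 62815333. These 26 counts lay in the same 4 cells.

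Tie1 (minus strand, chr4:118471191-118490061) was found in the most cells of the 7 genes in every cluster but b2. There it was found in 20 cells and Tek in 21, and in c3 and a1 Tie1 tied with Nrp1. Its level was 480 CPM in c3 (449 to 512), 267 CPM in c4 (240 to 295) and 126 CPM in c5 (109 to 145). In HE-YSA it was 192 CPM in a1 (163 to 224) and 110 CPM in a2 (90.9 to 132), and in HE-YSP 210 CPM in b2 (181 to 244) and 144 CPM in b3 (119 to 172). The early YS progenitors were at 42.6 CPM in the LMP-skewed p1 (28.3 to 61.6) and 119 CPM in the EMP-skewed p2 (95.1 to 147). No cluster fell below 42.6 CPM. All 49 HE-AGM cells had a Tie1 count, also after thinning, with a lowest cell of 79.4 CPM in c3 and 116 CPM in c4, whereas 40 of 52 HE-YSA and 42 of 49 HE-YSP cells had one. Levels of b3, c5, p2 and a2 formed a run in which no neighbours differed. The low p1 level was uneven between runs, at 0, 15.8 and 76.7 CPM in runs 1, 2 and 3, and 17 of its 28 counts came from 2 cells of E9.5. Reads of Tie1 were divided evenly between Tie1-201 and Tie1-203, 49% and 50.5%, so these forms were not resolved.

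Tek had its highest level in early HE of the plexus. It stood at 212 CPM in b2 (182 to 245), 155 CPM in a1 (129 to 184) and 152 CPM in c3 (135 to 170). In b3, a2 and c4 it was 93.8 CPM (74 to 117), 63.9 CPM (49.6 to 81) and 60.4 CPM (48.2 to 74.8). The order of the late clusters was the same as that of the early ones, though a1 could not be told from c3, nor a2 from c4. In p1, p2 and c5 it was 35, 31.4 and 19.2 CPM. Cells with a Tek count made up 24 of 29 in c3, 17 of 23 in a1 and 21 of 25 in b2, and 12 of 20, 18 of 29 and 10 of 24 in c4, a2 and b3. Tek was also uneven by stage in b2, at 335 CPM in the 10 cells of E9.0 and 166 CPM in the 13 of E10.5.

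**Figure D2:**
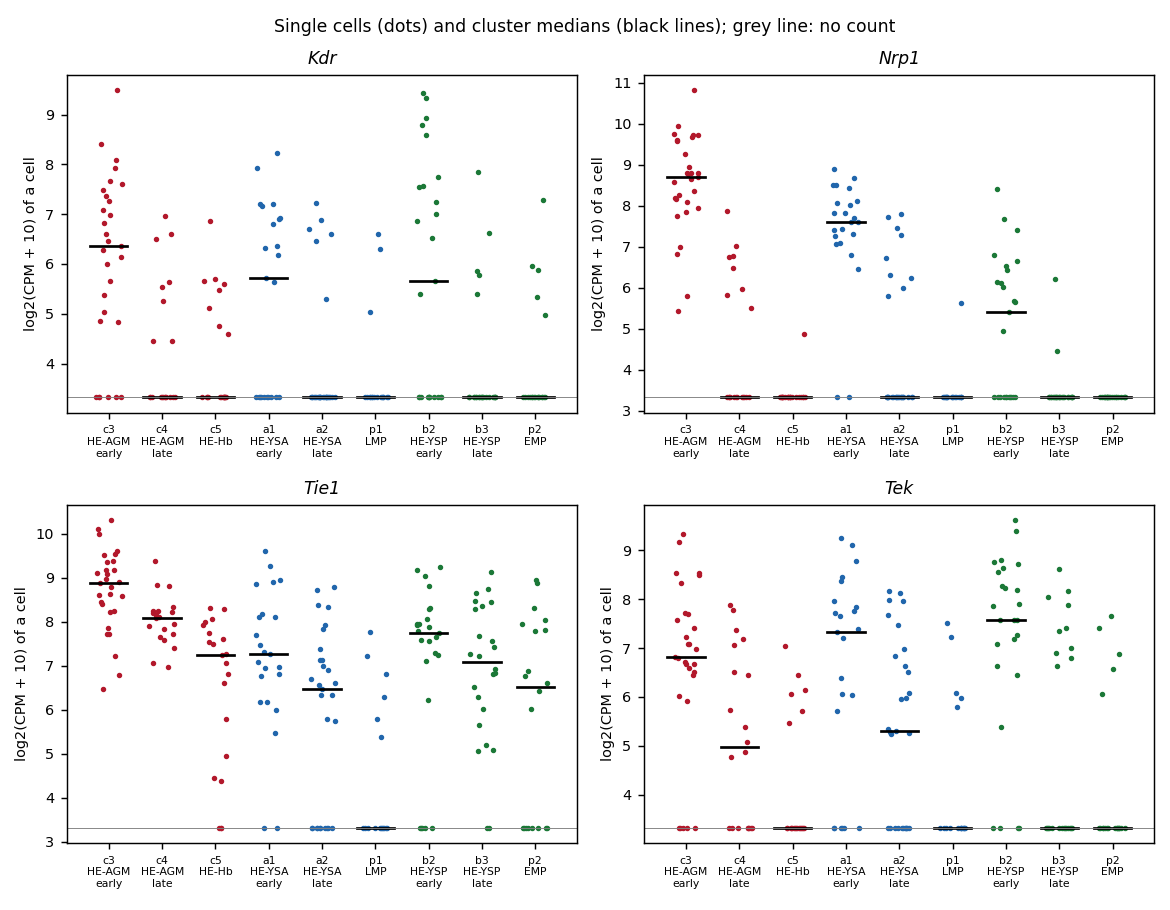
Single cells (dots) and cluster medians (black lines) of Kdr, Nrp1, Tie1 and Tek, as log2(CPM + 10), with a grey line where a cell had no count. In c3 the lowest cell was at 33.3 CPM for Nrp1 and 79.4 CPM for Tie1. Flt1, Flt4 and Nrp2, which are not drawn, had medians of 0 in each cluster.

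Counted together, cells of the early clusters carried more of the 7 genes. With all cells thinned to 17595 counts, at least 3 of the 7 genes were found in 24 of 29 c3 cells, 17 of 23 a1 cells and 17 of 25 b2 cells. The late clusters had 8 of 20 cells in c4, 5 of 29 in a2 and 2 of 24 in b3. In c5 and p2 no cell reached 3 genes, and in p1 2 of 17 cells did. Kdr and Nrp1, the receptor and its co-receptor, were found in the same cell in 16 c3, 13 a1 and 7 b2 cells, and in 1 c4, 2 a2 and 0 b3 cells. A TIE receptor was found in 15 of 21 cells of c5, 7 of 17 of p1 and 11 of 20 of p2. Before thinning, the cells with at least 3 genes were 29, 19 and 18 in c3, a1 and b2 and 10, 10 and 4 in c4, a2 and b3.

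The next comparison was between the HE populations, with early and late clusters pooled. Against HE-YSA, 6 of the 7 genes had enough counts and 3 were called higher in HE-AGM, where 29.3% of the 8968 genes compared were higher and 12% lower by the same rule. These were Flt1 with a log2 ratio of 1.66 (0.97 to 2.51), Nrp1 with 1.38 (1.17 to 1.60) and Tie1 with 1.42 (1.23 to 1.61). None was lower. Kdr at 0.79 (0.42 to 1.19), Flt4 at 0.68 (-0.16 to 1.67) and Tek at 0.13 (-0.12 to 0.38) stayed within 2-fold. The median over the 6 genes was 1.09, and over all genes compared 0.25. Nrp2, with 14 and 31 counts, had too few counts for a call and a ratio of -1.92, with an interval below 0.

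Against HE-YSP the same 3 of 6 genes, Flt1, Nrp1 and Tie1, were called higher in HE-AGM and none lower, beside 31.1% and 13.2% of 8803 genes. Nrp1 gave the widest gap, 297 against 34.7 CPM, or a log2 ratio of 3.09 (2.72 to 3.51). Flt1 was at 1.83 (1.06 to 2.79) and Tie1 at 1.14 (0.95 to 1.32). Kdr, Flt4 and Tek lay on the other side of 0 but within 2-fold, at -0.23 (-0.53 to 0.09), -0.85 (-1.51 to -0.19) and -0.44 (-0.67 to -0.20). The median was 0.45 over the 6 genes and 0.30 over all genes. Both comparisons share the HE-AGM cells. With 6 genes, a count of 3 beside these background shares says nothing particular about the receptors as a group.

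Between the YS populations few genes moved, 6.03% higher and 7.06% lower in HE-YSP of 6587 genes, and 3 of the 6 receptor genes compared were called. The reporter sort differed between these populations, and its part was not tested. In HE-YSA 47 cells were sorted by Gfi1 and 4 by Runx1, and in HE-YSP 13 and 36. Kdr and Flt4 were higher in HE-YSP, with log2 ratios of 1.02 (0.61 to 1.44) and 1.54 (0.68 to 2.53). Nrp1 was lower at -1.70 (-2.16 to -1.29), 34.7 against 114 CPM. Tie1 at 0.28 (0.04 to 0.53) and Tek at 0.56 (0.29 to 0.84) were within 2-fold, as was Nrp2 at -0.43 (-1.33 to 0.41). Stage differed too, with 16 HE-YSP and 2 HE-YSA cells from E9.0, and 20 and 35 from E10.5. With E10.5 cells alone, Nrp1 moved to -1.05 and Tie1 to 0.75, each outside its counting interval. Kdr and Flt4 were then at 1.17 and 2.24, within theirs. The part of stage was not tested. Kdr stood at the border of 2-fold, with 0.81 in thinned cells, 0.80 without run 1, 0.92 from coding transcripts and 0.88 without the highest cells. Flt4 rested on single runs, at 0.43 without run 2 and 2.62 without run 1. Early clusters alone gave Kdr 1.11 (0.65 to 1.59) and Nrp1 -1.68 (-2.16 to -1.25), b2 against a1. In the late clusters Kdr and Flt4 lay on the other side, at -0.34 (-1.53 to 0.74) and -0.90 (-3.59 to 1.02) for b3 against a2, on 32 and 11 counts. Nrp2 differed in direction between the steps, at 2.46 (0.88 to 5.04) for b2 against a1 and -3.87 (-9.79 to -1.84) for b3 against a2, on 22 and 29 counts, too few for a call.

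For HE-AGM the early clusters alone gave the same 3 genes against a1, with Flt4 in addition at 1.33 (0.25 to 2.81), and the same 3 against b2. That Flt4 ratio rests on 43 and 7 counts, 30 of the 43 from 1 cell. In the late clusters, among genes with at least 50 counts, Tie1 alone passed 2-fold against a2, at 1.28 (0.98 to 1.59), and Nrp1 alone against b3, at 3.49 (2.09 to 6.01). Flt1, with 13 and 1 counts, was at 2.79 (0.58 to 8.72) for c4 against a2 and had too few for a call. The Nrp1 ratio of c4 to a2 was 0.30 (-0.28 to 0.90), on 66 and 40.99 counts.

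**Figure D3:**
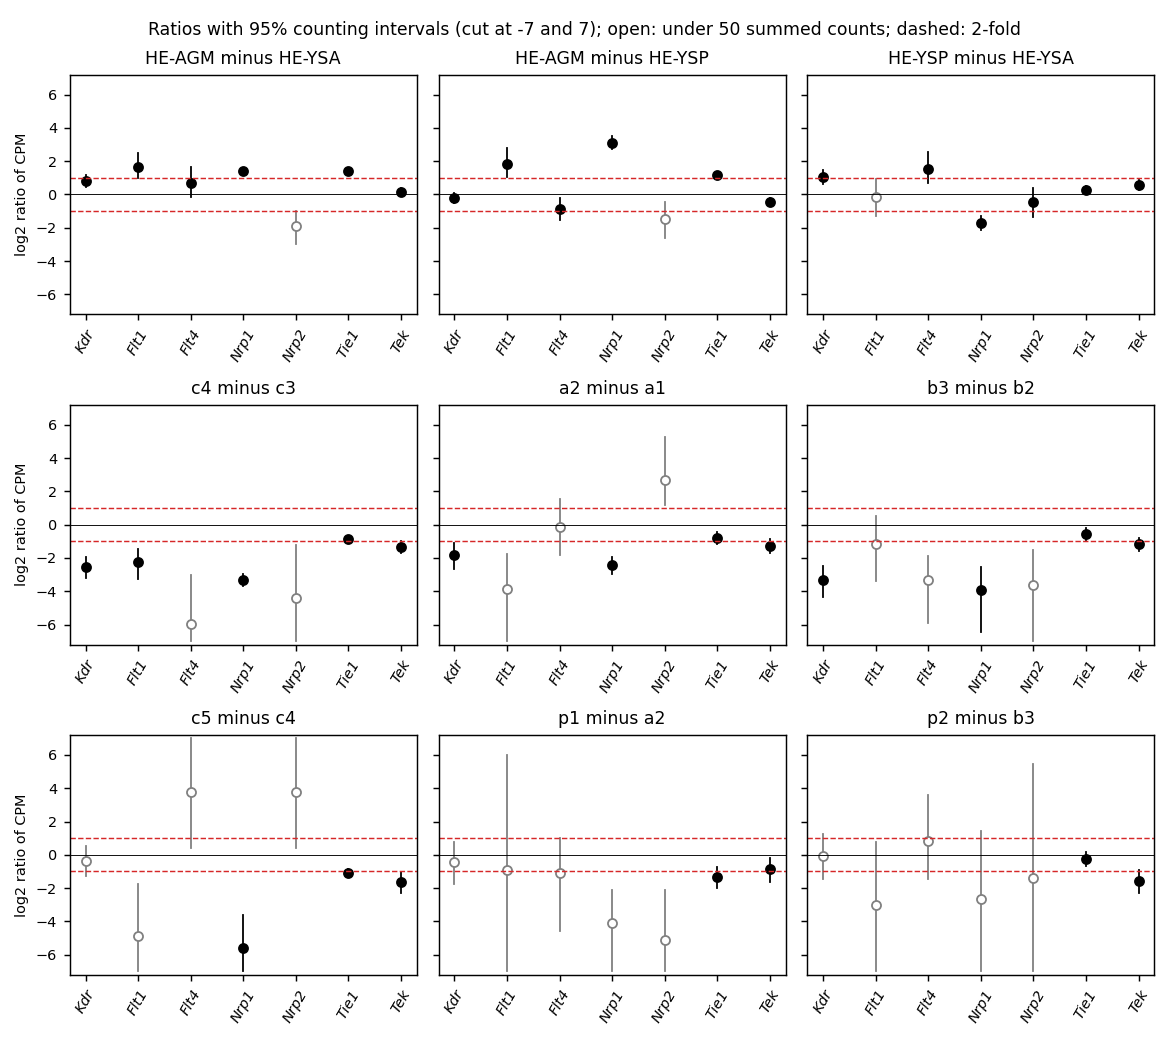
Log2 ratios of the 7 genes in the 9 comparisons, with exact 95% counting intervals cut at -7 and 7. Open symbols rest on under 50 summed counts and dashed lines mark 2-fold. In the steps from early to late HE every gene with enough counts lies below 0, from -0.55 for Tie1 in b3 against b2 to -3.94 for Nrp1 in the same step.

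Along the transition the first step was from early to late HE in each population, with the limit that cluster borders were drawn from the same cells. From c3 to c4, 4 of the 5 genes with enough counts were called lower and 0 higher, where 12.1% of 7514 genes were lower and 5.99% higher. Nrp1 was lower with a log2 ratio of -3.32 (-3.71 to -2.97), Kdr with -2.52 (-3.19 to -1.95), Flt1 with -2.25 (-3.26 to -1.45) and Tek with -1.32 (-1.70 to -0.97). Tie1 was within 2-fold at -0.85 (-1.02 to -0.67). Flt4 and Nrp2 had no count in c4 and were at least 10.3-fold and at least 3.35-fold lower there, against a floor of 3 counts over the cluster. The floor is a fixed count and not the end of an interval, and the exact intervals of these log2 ratios ended at -3.00 and -1.25. Without the c3 cell with the most Flt4 counts, 13 of the 43 remained. All 20 c4 cells came from cDNA project 34, while c3 held 5 cells of project 43 and 1 of project 36. Those 5 were the only AGM cells used with a Gfi1 sort label, and their Nrp1 and Tek levels are given at the end. The part of project and sort in this step was not tested.

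From a1 to a2, 3 of 4 genes were called lower and 0 higher, beside 6.43% lower and 6.32% higher of 4680 genes. Nrp1 was at -2.43 (-2.97 to -1.95), Kdr at -1.85 (-2.69 to -1.12) and Tek at -1.27 (-1.72 to -0.84), while Tie1 was again within 2-fold at -0.80 (-1.16 to -0.45). From b2 to b3 the same 3 of 4 genes were lower and 0 higher, beside 8.30% and 8.77% of 4278 genes. The reporter sort differed, with 3 cells by Gfi1 and 22 by Runx1 in b2 and 10 and 14 in b3. Its part was not tested. Nrp1 was at -3.94 (-6.47 to -2.52), Kdr at -3.30 (-4.34 to -2.50), Tek at -1.17 (-1.58 to -0.78) and Tie1 at -0.55 (-0.90 to -0.21). Kdr, Nrp1 and Tek were thus called lower in each of the 3 populations and Tie1 in none. For Tek this depended on the cells. Its ratio of c4 to c3 was -0.99 without run 2, and that of b3 to b2 was -0.83 without run 2 and -0.38 in E10.5 cells alone. Tie1 passed 2-fold in 2 alternatives of these steps, at -1.05 for b3 against b2 in E10.5 cells and at -1.32 for a2 against a1 without run 1. Nrp1 in b3 against b2 rested on 3 and 55 counts, and had under 50 summed counts when any 1 run was left out. The median over the receptor genes compared was -2.25 for c4 against c3, -1.56 for a2 against a1 and -2.23 for b3 against b2, and over all genes -0.02, 0.04 and 0.10. The summed endothelial markers moved the same way, from 3678 to 1910, 5208 to 3019 and 6128 to 2320 CPM, and their part in the receptor values was not tested.

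The second step led from late HE to the cells beyond it. From c4 to c5, all 3 genes with enough counts were called lower and 0 higher, beside 11.1% lower and 6.38% higher of 6632 genes. Nrp1 was at -5.59 (-11.49 to -3.63), with 1 count against 66, Tek at -1.64 (-2.32 to -1.03) and Tie1 at -1.08 (-1.34 to -0.83). Kdr, with 22 and 26 counts, was at -0.35 (-1.25 to 0.52). Flt1, with 0 counts in c5 and 13 in c4, was at least 4.7-fold lower in c5 against the floor of 3 counts. The exact interval of its log2 ratio ended at -1.73, and 11 of the 13 counts came from 1 cell. Flt4 and Nrp2, each with 7 counts in c5 and 0 in c4, were at least 2.15-fold higher in c5 against the same floor, from 1 and 2 cells, with exact intervals of the log2 ratio that start at 0.41. The 7 Flt4 counts were in 1 cell of run 3, and none was left in c5 without it. The median of the 3 genes was -1.64, against -0.04 over all genes. From a2 to p1, 1 of 2 genes was called lower and 0 higher, beside 9.71% and 7.13% of 4388 genes. This was Tie1 at -1.35 (-2.02 to -0.76), with Tek at -0.85 (-1.62 to -0.17). Tie1 was at -0.18 without run 1 and -4.25 without run 3, and Tek at -0.17 and -3.20, so single runs decided these values. The reporter sort differed in this step, and its part was not tested. In a2 29 cells were sorted by Gfi1 and 0 by Runx1, and in p1 5 and 12. Nrp2 was at least 5.75-fold lower in p1 against the same floor, with an exact interval of the log2 ratio that ended at -2.13. From b3 to p2, 1 of 2 genes was called lower and 0 higher, beside 6.83% and 4.79% of 4113 genes. Here Tek was the one, at -1.56 (-2.32 to -0.89), and Tie1 was at -0.27 (-0.69 to 0.14). In b3 10 cells were sorted by Gfi1 and 14 by Runx1, and in p2 2 and 18, and the part of the sort was not tested. Nrp1 and Flt1 counts were 3 and 4 in b3 and 0 in p2, and Nrp1 had 40.99 counts in a2 and 1 in p1, a log2 ratio of -4.09 (-10.00 to -2.10).

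**Figure D4:**
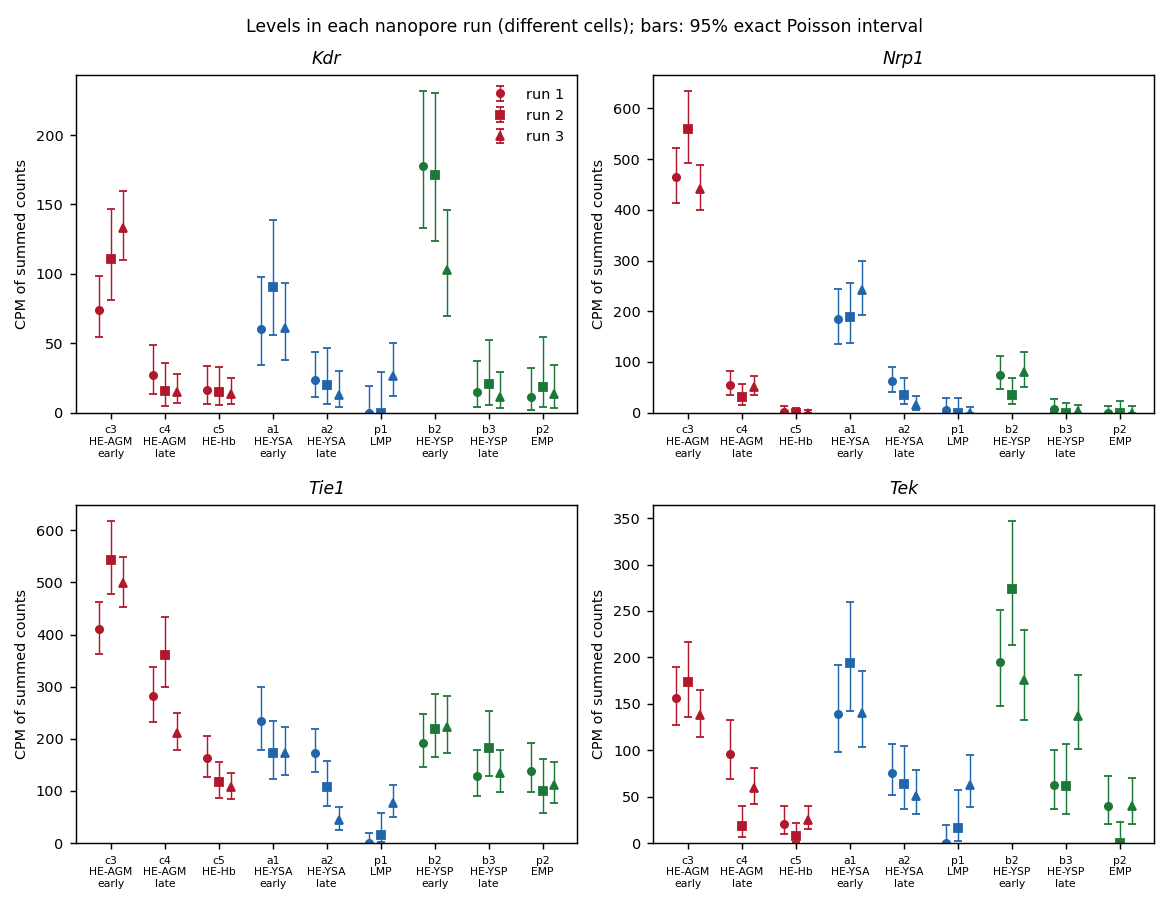
Levels of Kdr, Nrp1, Tie1 and Tek in each nanopore run, in CPM on axes that start at 0, with exact 95% Poisson intervals; the runs hold different cells. Nrp1 in c3 was at 465, 560 and 442 CPM in runs 1, 2 and 3, and Tie1 in a2 at 173, 108 and 43.3 CPM.

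The levels were also read in each run, which held other cells of the same clusters. The authors drew the clusters from the cells of all runs, so a run is not a replicate and does not check a difference between clusters. Nrp1 was at 465, 560 and 442 CPM in c3 and at 54.3, 30.9 and 51.4 CPM in c4 in runs 1, 2 and 3, so c3 was above c4 in each run. Kdr in c3 was at 74.1, 111 and 133 CPM and in c4 at 27.2, 15.4 and 15.1 CPM, again higher in c3 in each run. Tie1 was at 410, 544 and 498 CPM in c3 and at 282, 361 and 212 CPM in c4. In HE-YSA the late Tie1 level was less even, at 173, 108 and 43.3 CPM in a2, and run 1 of a2 reached the level of runs 2 and 3 of a1 (173 and 172 CPM).

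The long reads resolved 2 Flt1 forms. The soluble Flt1-203, whose own coding end and stop codon are printed above, had 48 counts in 7 cells of c3 and 10 counts in 3 cells of a1, and none in the other 7 clusters. The full-length Flt1-202 had 34 counts in 11 cells of c3, 13 in 3 cells of c4, 7 in 3 cells of a1, 5 in 3 cells of b2, 4 in 1 cell of b3 and 1 in a2. Where both forms were found they could be in the same cell, in 5 c3 cells, while 2 c3 and 3 a1 cells had the soluble form alone. Another form, the retained-intron transcript Flt1-206, had 7 counts in 2 cells of c3 and 5 in 1 cell of b2, and the transcripts Flt1-201, Flt1-204 and Flt1-205 had none.

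Flt1-206 is annotated as 1 exon of 2030 bases with a retained intron, so its counts do not show where the RNA ended. With that limit, the annotated transcripts without the kinase exons, Flt1-203 and Flt1-206 together, made up 61.8% of Flt1 counts in c3 (50.9 to 71.9) and 58.8% in a1 (32.9 to 81.6). In c4 they were 0 of 13 counts (0% to 24.7%), and 11 of these 13 came from 1 cell. Pooled by population, the share of both was 53.9% of 102 counts in HE-AGM (43.8 to 63.8), 55.6% of 18 in HE-YSA (30.8 to 78.5) and 35.7% of 14 in HE-YSP (12.8 to 64.9), the last from 1 cell, and these intervals overlap. Flt1-203 alone held 47.1% of the HE-AGM counts (37.1 to 57.2) and 55.6% of those of HE-YSA (30.8 to 78.5). It held 0 of 14 counts in HE-YSP (0% to 23.2%), from 5 cells with a Flt1 count. For this form the HE-YSP interval lay below those of both other populations. These intervals take counts as independent, though the counts lay in few cells. Of the cells with a Flt1 count, Flt1-203 was in 0 of 5 in HE-YSP, 3 of 7 in HE-YSA and 7 of 17 in HE-AGM. A difference between populations cannot be read from so few cells.

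Estimated counts of Tek were often divided evenly between Tek-202, which lacks exon 4 and whose junction is printed above, and Tek-203, so the forms were only partly resolved. Whole-number estimates made up 118 of the 349.8 counts of Tek-202 and 116 of the 502.3 of Tek-203. Of all estimates, Tek-202 had 35.1% of Tek counts in c3 (29.6 to 40.8), 35.6% in a1 (27.2 to 44.2) and 37% in b2 (30.1 to 44.7). The late clusters a2 and b3 were at 43.9% (32.1 to 56.7) and 32.2% (22.2 to 44.1), and c5, p1 and p2 at 36.1%, 45.7% and 35.3%. In c4 the share was 59.6% (48.3 to 70.1), which lies outside the interval of c3. The c4 share ran from 50% to 67.9% and the c3 share from 26.5% to 39.6% when each nanopore run was left out. The c4 share was 48.5% (36.6 to 61.9) without the cell with the most Tek counts, and among whole-number estimates alone c4 and c3 were at 47.6% (32 to 63.6) and 45.1% (36.1 to 54.3), which overlap. In c5, a2 and p2 the whole-number estimates of Tek-202 were 2 of 4, 3 of 9 and 0 of 1 Tek counts, too few to show the form there. Over all cells Tek-203 had 55.3% of the counts and Tek-201, which also holds the exon, 5.5%.

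**Figure D5:**
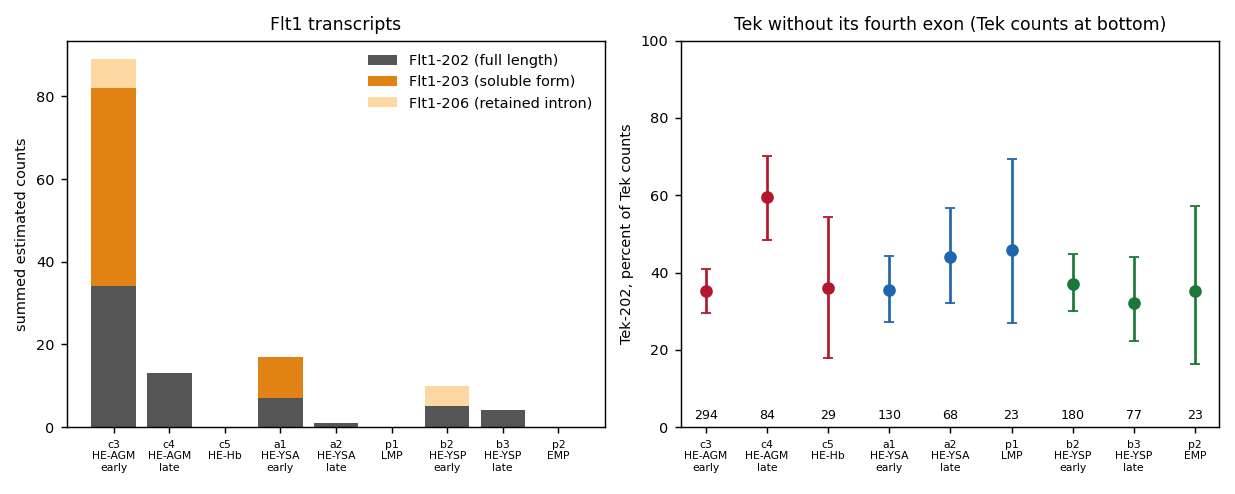
Left, summed estimated counts of the Flt1 transcripts in the 9 clusters as stacked bars from 0; right, Tek-202 as a percentage of estimated Tek counts, in part divided evenly with Tek-203, with exact 95% binomial intervals and the Tek counts at the bottom. Flt1-203 has counts in c3 (48) and a1 (10) only, and the Tek-202 share of c4, 59.6%, is the highest of the 9.

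Other genes of the pathway were taken from lists by role. Their counts are read beside the background given above, 29.3% higher and 12% lower in HE-AGM against HE-YSA, 31.1% and 13.2% against HE-YSP, and 6.03% and 7.06% in HE-YSP against HE-YSA. Ligands were scarce in these cells. Of the 5 VEGF ligand genes (Vegfa, Vegfb, Vegfc, Vegfd and Pgf), only Vegfb had enough counts to be compared, at 25.8 CPM in c3, 3.57 CPM in a1 and 24.7 CPM in b2, with a called log2 ratio of 1.90 (1.07 to 2.96) for HE-AGM against HE-YSA and 0.63 (-0.01 to 1.34) against HE-YSP. Vegfa was at 6.19 CPM in c3 and 1.99 CPM in c5 and at 0 in the others. Of the 3 angiopoietin genes only Angpt1, the activating ligand of TEK, could be compared. It was higher in HE-AGM than in HE-YSA at 1.82 (1.22 to 2.53) and than in HE-YSP at 2.39 (1.65 to 3.34), and higher in c4 (65.4 CPM) than in c3 (30.9 CPM), the direction opposite to Tek.

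Plexins pair with neuropilins to form the receptors of most class 3 semaphorins. Of 12 such genes, 2 of 2 compared were higher in HE-AGM than in HE-YSA, and 1 of 3 than in HE-YSP, with none lower, beside backgrounds of 29.3% and 31.1%. Sema3g, a class 3 semaphorin of arterial endothelium, was at 77.9 CPM in c3, 22.6 CPM in a1 and 1.18 CPM in b2, and its ratio of HE-AGM to HE-YSP was 5.86 (3.94 to 11.75) with 1 count in the latter. Plxnd1, a plexin of endothelial cells and the highest of the list at a mean of 120 CPM over clusters, was at 289, 95.2 and 241 CPM in c3, a1 and b2. It was called lower from a1 to a2 and from b2 to b3. Sema3a, Sema3c, Sema3d and Sema3e had no count in the cells used.

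Of 18 receptor partners and signal transducers, 5 of 13 were higher and 0 lower in HE-AGM against HE-YSA, and 5 of 14 higher and 1 lower against HE-YSP. Here the background was 29.3% higher and 12% lower, and 31.1% and 13.2%. Between HE-YSP and HE-YSA 1 of 12 was higher and 3 lower, beside 6.03% and 7.06%. Itgb3, an integrin subunit that interacts with KDR and is also found on megakaryocytes, was at 176 CPM in c3 and 352 CPM in c4 and at no more than 53.7 CPM elsewhere, with a ratio of 5.31 (4.50 to 6.45) for HE-AGM against HE-YSP. Gipc1, an adaptor that binds the tail of NRP1, ran the other way, at 135 CPM in c3, 234 CPM in a1 and 503 CPM in b2, with -1.70 (-1.88 to -1.53) in the same comparison. Ptprb, a phosphatase that acts on TEK, was at 94.4 CPM in c3 and 14.4 CPM in c4, and was one of 3 genes of 13 called lower in that step, with Yes1 and Ptk2.

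Genes that respond to VEGF were few. Of 8, 2 of 3 compared were higher in HE-AGM than in HE-YSA (Unc5b and Rcan1) and 2 of 3 than in HE-YSP (Unc5b and Nr4a1), with none lower, beside 29.3% and 31.1%. Nr4a1, an immediate early gene, was at 56.2 CPM in c3, 32.1 CPM in a1 and 8.23 CPM in b2, with 3.25 (2.27 to 4.69) for HE-AGM against HE-YSP. Unc5b, a netrin receptor of arterial and tip cells, was at 94.4 CPM in c3 and 9.35 CPM in c4, and both genes were called lower from c3 to c4. Dll4 was at 8.63 CPM in c4 and at 0 elsewhere, and Esm1 was at 21.2 CPM in b2 and at 0 elsewhere.

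Endothelial transcription factors completed the lists. Of 14, 5 of 10 were higher and 1 lower in HE-AGM against HE-YSA, 6 of 10 higher and 1 lower against HE-YSP, and 0 of 8 higher and 2 lower in HE-YSP against HE-YSA. The background shares higher were 29.3%, 31.1% and 6.03%, and those lower 12%, 13.2% and 7.06%. Sox17, an arterial factor needed in HE, was at 169 CPM in c3, 370 CPM in a1 and 163 CPM in b2, and at 3.6, 100 and 0 CPM in c4, a2 and b3. It was called lower in each of the 3 steps. Sox18, the highest of the list at a mean of 216 CPM, was at 611 CPM in b2 and lower in HE-AGM than in HE-YSP, at -1.30 (-1.46 to -1.13). Foxc2, known for lymphatic vessels and valves, was higher in HE-AGM than in HE-YSP at 4.64 (2.69 to 10.54), on 74 counts against 1. These lists were read by their counts only, and no list was tested against other genes.

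The genes whose levels over the 9 clusters were most like each receptor were found by Pearson correlation of log2(CPM + 1) over 9 clusters, which share libraries, runs and totals, among 3266 or 3267 genes with a mean of at least 50 CPM. For Kdr these were Rasip1 (0.954), Adam15 (0.912) and Map3k11 (0.910), and for Flt1 Vim (0.977), Adam15 (0.942) and Col18a1 (0.932). Nrp1 was most like Col4a1 (0.982), Col18a1 (0.976) and Mfge8 (0.970), of which Col4a1 and Col18a1 encode basement membrane collagens. Tek was most like Egfl7 (0.968), Krtcap2 (0.968) and Plvap (0.964), Egfl7 and Plvap being endothelial genes. Tie1 was most like Ubb-ps (0.949), P4hb (0.925) and Ctnnd1 (0.917). For the sparse Flt4 and Nrp2 the highest values were lower, Traf4 (0.869), Hsp90b1 (0.814) and Tusc3 (0.788) for the first, and Gm37294 (0.836), an unnamed gene (0.832) and Pnrc2 (0.829) for the second. A correlation over 9 points is a description and was not tested.

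Promoter sequences were read from RefSeq (GRCm38.p6), 250 bases before to 50 after each gene's start, for all 7 genes. Those of Flt1, Nrp1 and Tie1, which passed 2-fold in both comparisons of HE-AGM with YS cells, are printed, 5′ to 3′ on the gene's strand, with the letters AGGAAG on either strand (a core of ETS factor sites) in capitals.
Flt1: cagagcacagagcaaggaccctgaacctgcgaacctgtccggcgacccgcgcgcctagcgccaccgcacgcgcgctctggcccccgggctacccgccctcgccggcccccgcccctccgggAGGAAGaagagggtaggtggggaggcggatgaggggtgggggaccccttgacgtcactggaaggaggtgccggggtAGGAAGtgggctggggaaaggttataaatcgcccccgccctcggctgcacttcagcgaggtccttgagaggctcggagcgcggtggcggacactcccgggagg
Nrp1: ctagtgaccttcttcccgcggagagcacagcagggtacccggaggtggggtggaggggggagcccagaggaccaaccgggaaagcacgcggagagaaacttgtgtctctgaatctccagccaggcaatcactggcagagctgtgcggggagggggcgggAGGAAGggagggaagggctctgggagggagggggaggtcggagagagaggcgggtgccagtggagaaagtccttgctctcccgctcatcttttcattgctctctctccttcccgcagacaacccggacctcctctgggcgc
Tie1: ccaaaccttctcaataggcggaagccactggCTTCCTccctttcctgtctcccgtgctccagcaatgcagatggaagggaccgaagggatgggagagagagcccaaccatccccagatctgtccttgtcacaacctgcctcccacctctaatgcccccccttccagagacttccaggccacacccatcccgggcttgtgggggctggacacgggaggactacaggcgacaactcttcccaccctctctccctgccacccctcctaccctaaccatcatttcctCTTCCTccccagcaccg
AGGAAG was found in these 3 of the 7 promoters, with 2 matches in Flt1 and 2 in Tie1, and in 35.4% of 32851 promoters of the same length. The RUNX letters TGTGGT, searched on both strands like the others, were in 0 of the 7 promoters and in 16.8% of all. The GATA letters GATAAG were in the Tek promoter alone of the 7 and in 7.44% of all. Those of SOX factors, ACAAAG, were likewise in Tek alone and in 18.7% of all promoters. No match overlapped one of another motif. A match is a description of letters and not of binding.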

How the data were processed

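Full-length cDNA of single cells was sequenced on nanopore flow cells. Per the labels and the study's methods, the authors trimmed and split the reads, aligned them with minimap2 (2.26 in the submitters' processing notes, which also name R 4.3.0 and DESeq2 1.40.2) and quantified transcripts. The deposited estimated counts per transcript were made by the authors from these alignments without normalization, and the deposited TPM scale the same values per cell, which matched the counts to a relative difference of 1.25e-12. The study's methods name the GENCODE release the authors aligned to. Positions here were read from another GENCODE release, on GRCm38, where all 29 transcripts matched by name and length.

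Estimated counts were summed per gene, and 208 of 221 cells with totals above the median less 1 scaled median absolute deviation (17595) were used, with totals of 18131 to 125339. A cell had a count at an estimate of at least 0.5. Cells of a cluster were summed, 0.5 counts were added to each sum for ratios, and a ratio was compared from 50 summed counts and called from 2-fold. A level of 0 was read against a floor of 3 counts over the cluster. Poisson, conditional binomial and binomial intervals are exact. No statistical test was run, since a cluster is 1 sample. Cells were thinned to 17595 counts for shares of cells. Members, lists and alternatives were chosen with earlier results of these data known. The genes named were the 7 receptors, the highest and the most different gene of each list, and the 3 genes most like each receptor. Other genes were named after their values were seen. The scripts were checked on simulated data. Alternatives were DESeq2 (1.42.0, R 4.3.3) size factors, TPM, other limits on counts and cells, coding transcripts alone, each run left out, E10.5 cells alone, early or late clusters alone, and the highest cell left out. Python 3.11.15, numpy 2.4.6, pandas 2.3.3, scipy 1.17.1 and matplotlib 3.10.9 were used.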

Additional observations from a re-analysis of the deposited data

Results flagged for a closer look

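Nrp2 went in opposite directions in different populations. Its log2 ratio was 2.68 for a2 against a1, but -4.38 for c4 against c3 and -3.65 for b3 against b2. Beyond HE it was 3.79 for c5 against c4 and -5.14 for p1 against a2. Each cluster is 1 sample, the difference between the ratios was not tested, and the counts lay in 4 cells of a2, 4 of c3, 5 of b2 and 2 of c5.

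Cells under the limit on total counts were not used in the comparisons, yet receptor transcripts were found in them. These 13 cells held 29 counts of the 7 genes, in 7 cells and out of 98222 counts in total, with 17 counts of Tie1 in 4 cells, 7 of Tek in 3, 4 of Nrp1 in 2 and 1 of Kdr in 1.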

How the results depend on the processing

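Of the 24 log2 ratios past 2-fold, 319 of 347 values under the alternatives stayed within the counting interval of the reported value, 26 moved outside it and 2 changed direction. The 2 were Kdr (-0.34) and Flt4 (-0.90) for HE-YSP against HE-YSA in the late clusters alone, both on fewer than 50 counts. The early-only, late-only and highest-cell alternatives and those on Tek were chosen after seeing the data. The number of receptor genes called moved in many settings, of which some follow. Where the cause is not in the alternative itself (fewer cells, no minimum) the cause was not tested. For p1 against a2, 1 became 2 with DESeq2 size factors, TPM, thinned cells, without run 3 and without the highest cell, 0 without run 1 and 4 with no minimum on counts. For HE-YSP against HE-YSA, 3 became 1 in thinned cells, without run 1 and without the highest cell, and 0 in late clusters alone. For c5 against c4, 3 became 1 in thinned cells and 6 with no minimum. For p2 against b3, 1 became 0 in thinned cells, without run 3 and in E10.5 cells (none had enough counts), and 4 with no minimum. For b3 against b2, 3 became 1 without run 2 and 6 with no minimum, and for a2 against a1, 3 became 5 with no minimum. Nrp1 in b3 against b2 had too few counts for a call in thinned cells (3 and 28) and without run 1 (1 and 33), run 2 (3 and 46) or run 3 (2 and 31). The same held in E10.5 cells (1 and 42) and without the highest cell (1 and 43). Kdr in a2 against a1 had too few in thinned cells, with 11 and 25. Counts that stayed close could still change genes. Tek was lost in c4 against c3 without run 2 (-0.99) and in b3 against b2 without run 2 (-0.83) and in E10.5 cells (-0.38), and Tie1 was gained in b3 against b2 in E10.5 cells (-1.05) and in a2 against a1 without run 1 (-1.32). In late clusters alone HE-AGM had 1 call against HE-YSA and 1 against HE-YSP. The share of short Flt1 transcripts of all Flt1 counts, HE-YSP, was 0 without run 1 and without the cell with the most counts, and 83.3% in E10.5 cells. That last share rests on 5 counts of the retained-intron transcript in 1 cell of b2, beside 1 full-length count. The soluble form had no count there. No paired analysis was possible because each cluster is 1 sample and no test was run. Depth limits Flt1, Flt4 and Nrp2 most, with 134, 111 and 72 counts over all cells.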

Other observations

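Cells in which none of the 7 genes had a count numbered 3 of 21 in c5, 3 of 29 in a2, 7 of 17 in p1 and 5 of 20 in p2, and 0 in the other clusters. Tie1 and Tek were found together at full depth in 24 cells of c3, 17 of a1 and 17 of b2, against 12 of c4, 11 of a2 and 8 of b3. After thinning these were 19, 14 and 16 cells, against 11, 7 and 6. In c3 the 5 cells of cDNA project 43 had 822 CPM of Nrp1, against 476 CPM in c3 as a whole. They had 234 CPM of Tek, against 128 CPM in the 23 cells of project 34.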
